A study of Sus scrofa with 36 samples.

Results

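The glucocorticoid pathway genes described here were 10 genes chosen by name: the glucocorticoid receptor NR3C1, the mineralocorticoid receptor NR3C2, the receptor co-chaperones FKBP5 and FKBP4, the cortisol-converting enzymes HSD11B1 and HSD11B2, and the glucocorticoid-induced genes TSC22D3, SGK1, PER1 and ZBTB16. Of these, 9 were matched to an Ensembl pig gene identifier with counts, out of 31907 identifiers counted in all, of which 15029 carried a gene symbol. TSC22D3, which encodes the glucocorticoid-induced leucine zipper protein, could not be matched and was not analysed here. The levels of the other 9 came from RNA sequencing of whole cerebellum.

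The study crossed 2 factors in 36 term-born crossbred piglets of both sexes. Piglets had either a normal birth weight (NBW) or were growth restricted at birth (IUGR, chosen for low weight and altered head shape), and from 3 days of age they received for 3 weeks a formula made either with fat from cow's milk (MILK) or with vegetable oil (VEG). The 4 groups are written as diet and birth weight (VEG-NBW and VEG-IUGR, MILK-NBW and MILK-IUGR), and each held 9 piglets, all bought from a commercial farm, formula fed and sedated before they were killed. There was no sow-fed group and no group treated with a glucocorticoid, cortisol was not part of the files, and litter and hour of sampling were not used here.

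Glucocorticoids reach the nucleus through NR3C1 and, at lower hormone levels, through NR3C2, which binds cortisol with higher affinity. Within the cell, HSD11B1 regenerates active cortisol from cortisone and HSD11B2 inactivates it, while the HSP90 co-chaperones FKBP4 and FKBP5 raise and lower the affinity of the receptor for its ligand. FKBP5, SGK1, PER1 and ZBTB16 are transcribed in response to the activated receptor in many tissues, so that their transcripts are often read as a record of recent hormone exposure, and the developing cerebellum, rich in NR3C1, is known as a region sensitive to glucocorticoids.

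Each library was the RNA of 1 piglet, and piglets were the replicates throughout. In 3 libraries (piglet 202 of VEG-NBW, 210 of VEG-IUGR and 213 of MILK-NBW) between 31.5% and 64.3% of reads were not assigned to a gene, against 26.7% to 30.5% in the other 33. They were taken to stand for the 3 libraries that the study excluded for low RNA integrity without naming them, and the values below are from the 33 remaining libraries (9 piglets in MILK-IUGR and 8 in each other group, 16 females and 17 males) unless all 36 are named. Total counts on genes in the 33 libraries ranged from 15516541 to 23027502 with a median of 18025540. Levels are given as counts per 1000000 counted reads (CPM) after TMM scaling of library size. In bulk tissue, fewer cells of a type and less RNA per cell cannot be told apart. Defining markers of cerebellum were present in every library, with GABRA6 of granule neurons at 199 to 389 CPM and CALB1 of Purkinje cells at 352 to 796 CPM. In piglet 210, whose library had 7936202 counts on genes, no read was counted for NR3C1, NR3C2, FKBP5, SGK1, PER1 or ZBTB16, where a count of 0 allows a level of up to 0.378 CPM, while FKBP4 stood at 1717 CPM.

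The first question was whether growth restriction changed these genes. None of the 9 passed the test: in edgeR's quasi-likelihood test of IUGR against NBW over both diets, no gene of the 9 had a Benjamini-Hochberg adjusted p under 0.05 (the smallest was 0.9996), and none of 15356 genes tested did (0.0%), nor did any in DESeq2 or limma voom. At an unadjusted p under 0.05, 0 of the 9 stood beside 337 of all genes (2.19%). The differences of the 9 genes lay between -0.06 and 0.36 on the log2 scale with a median of 0.04, beside a median of 0.00 over all genes, and 6 of 9 were positive. The widest interval among them, that of ZBTB16, ended at 0.79, where each of the 9 is a separate 95% interval from the 33 libraries. With all 36 libraries the upper ends were 0.96 for ZBTB16 and 0.82 for HSD11B2.

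**Figure D1:**
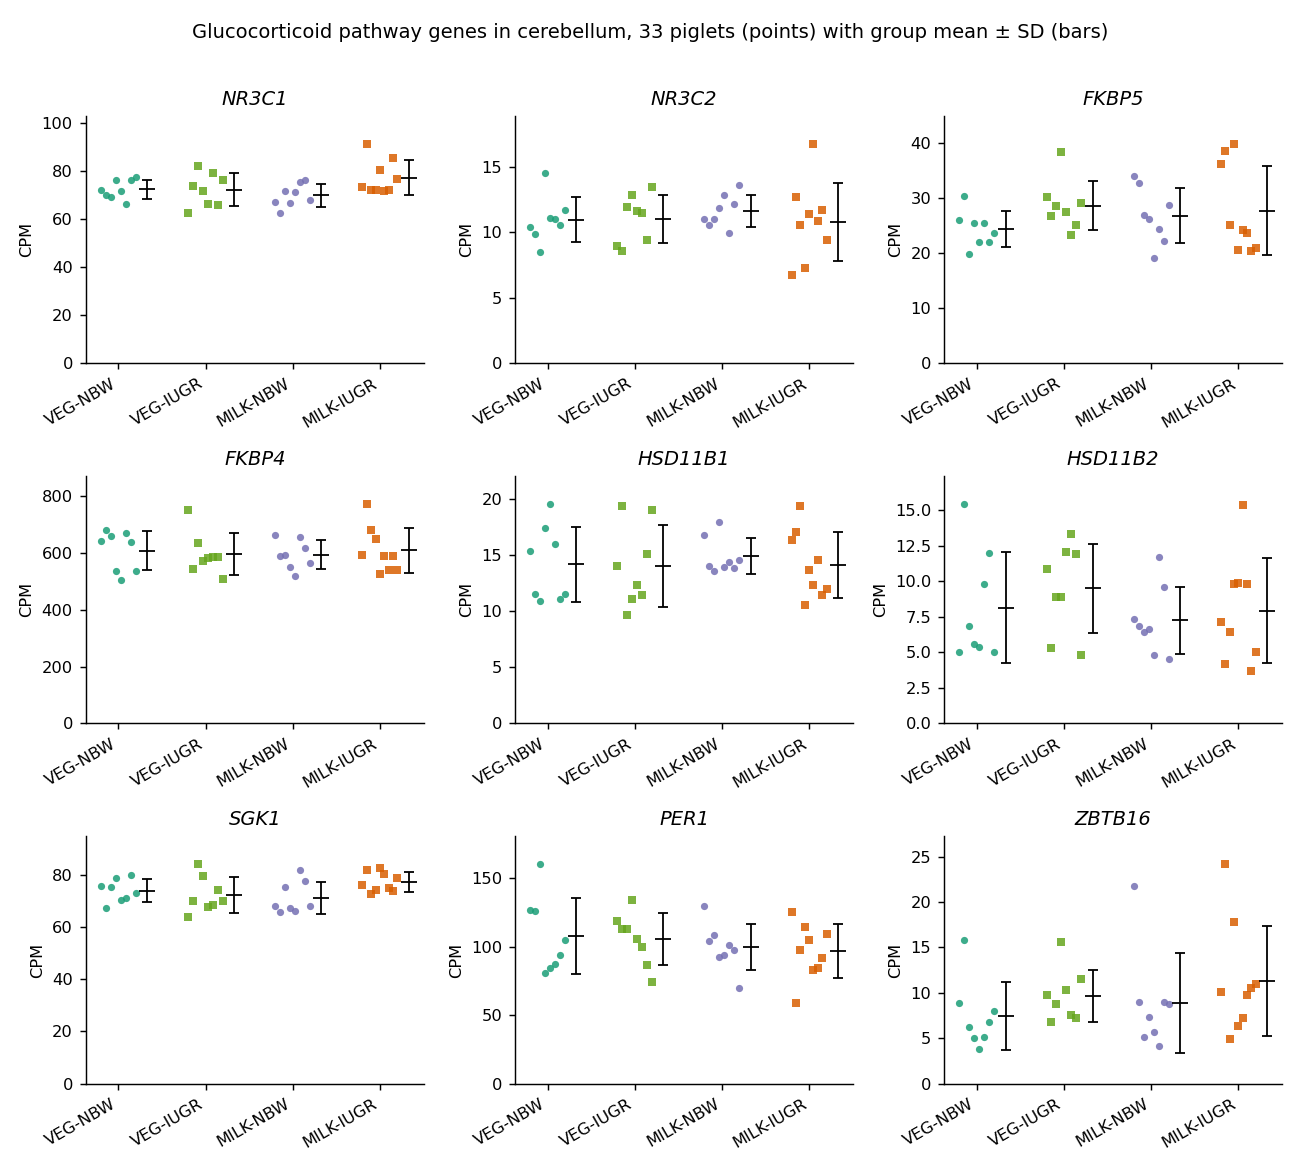
Level in CPM (vertical axes, from 0) of the 9 genes in each of the 33 piglets, 1 panel per gene, with the VEG-NBW and VEG-IUGR groups on the left and the MILK-NBW and MILK-IUGR groups on the right. Points are piglets and the black bars give the group mean and SD. The 4 groups overlap for every gene, NR3C1 and SGK1 are the tightest, and ZBTB16 has single piglets well above the rest in 3 groups.

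The glucocorticoid receptor gene NR3C1 (ENSSSCG00000014401, chromosome 2, 144822937 to 144956451 in Sscrofa11.1) varied little. Its level was 66.3 to 77.6 CPM (median 72.1) in VEG-NBW, 62.4 to 82.0 (median 72.9) in VEG-IUGR, 62.6 to 76.5 (median 69.7) in MILK-NBW and 71.8 to 91.5 (median 73.4) in MILK-IUGR. No MILK-IUGR piglet lay below 71.8 CPM, whereas each of the other groups held piglets below that level, and all groups overlapped. Over both diets NR3C1 differed by 0.07 ± 0.04 (log2, SE) between IUGR and NBW, with a 95% interval of -0.01 to 0.16 and an unadjusted edgeR p of 0.0961. Without piglet 201 of VEG-IUGR this unadjusted p was 0.0348, and with all 36 libraries the difference was -0.04 with an unadjusted edgeR p of 0.879.

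NR3C2, the mineralocorticoid receptor gene (ENSSSCG00000037766, chromosome 8, 80303172 to 80669050), was 8.48 to 14.5 CPM (median 10.8) in VEG-NBW, 8.56 to 13.5 (median 11.6) in VEG-IUGR, 9.97 to 13.7 (median 11.5) in MILK-NBW and 6.77 to 16.8 (median 10.8) in MILK-IUGR. Both the lowest and the highest of the 33 piglets belonged to MILK-IUGR. The difference between IUGR and NBW was -0.04 ± 0.09 (log2, SE; 95% interval -0.23 to 0.14). The log2 ratio of NR3C1 to NR3C2 counts within a library, which does not depend on library scaling, was 2.73 ± 0.19 (SD, n = 8) in VEG-NBW, 2.72 ± 0.21 (n = 8) in VEG-IUGR, 2.59 ± 0.18 (n = 8) in MILK-NBW and 2.88 ± 0.38 (n = 9) in MILK-IUGR. This receptor ratio differed by 0.14 between IUGR and NBW (two-sided permutation of birth weight within diet, p = 0.144), by -0.01 within VEG (exact permutation p = 0.895) and by 0.29 within MILK (exact permutation p = 0.0700).

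FKBP5, the co-chaperone that keeps the receptor in a state of low affinity and is itself induced by the hormone (ENSSSCG00000001549, chromosome 7, 31441764 to 31550704), spread over 19.2 to 39.8 CPM. It was 19.8 to 30.3 CPM (median 24.6) in VEG-NBW, 23.3 to 38.3 (median 27.9) in VEG-IUGR, 19.2 to 33.9 (median 26.6) in MILK-NBW and 20.3 to 39.8 (median 24.2) in MILK-IUGR. Among the VEG-fed piglets the growth-restricted ones were on the higher side, whereas in MILK-IUGR 3 piglets stood at 36.1 to 39.8 CPM and the rest within the range of the NBW piglets. The difference between IUGR and NBW was 0.13 ± 0.09 (log2, SE; 95% interval -0.06 to 0.32; unadjusted edgeR p of 0.179). Within VEG it was 0.23 ± 0.14 (95% interval -0.04 to 0.51; unadjusted edgeR p of 0.0969), where an exact permutation test of log2 CPM gave p = 0.0357. That test takes piglets as exchangeable and, unlike the edgeR fit, leaves out sex. That exact p rested on single piglets, since it stayed under 0.05 in 8 of 16 tests that each left out 1 VEG-fed piglet and was 0.0735 without piglet 209, the highest of VEG-IUGR. Within MILK it was 0.03 ± 0.13, and the diet by birth weight interaction of -0.20 ± 0.19 had an unadjusted edgeR p of 0.303.

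The co-chaperone gene FKBP4, whose protein carries the receptor towards the nucleus (ENSSSCG00000000743, chromosome 5, 67314010 to 67321628), had group medians within a narrow band. Its level ran from 504 to 678 CPM (median 640.1) in VEG-NBW, 507 to 749.9 (median 584) in VEG-IUGR, 519 to 661 (median 589.8) in MILK-NBW and 523 to 772 (median 589.7) in MILK-IUGR. Growth restriction made a difference of 0.00 ± 0.06 (log2, SE; 95% interval -0.11 to 0.12), and this sign changed with the processing. The log2 ratio of FKBP5 to FKBP4 counts was higher by 0.26 in VEG-IUGR than in VEG-NBW (exact permutation p = 0.0503) and differed by -0.01 within MILK (exact permutation p = 0.953).

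HSD11B1, the reductase that regenerates cortisol (ENSSSCG00000015616, chromosome 9, 133231451 to 133278396), was 10.9 to 19.6 CPM (median 13.5) in VEG-NBW, 9.69 to 19.4 (median 13.2) in VEG-IUGR, 13.6 to 18.0 (median 14.2) in MILK-NBW and 10.5 to 19.4 (median 13.6) in MILK-IUGR. HSD11B2, the dehydrogenase that inactivates cortisol (ENSSSCG00000002777, chromosome 6, 28084087 to 28089256), was 5.0 to 15.5 CPM (median 6.23) in VEG-NBW, 4.79 to 13.3 (median 9.89) in VEG-IUGR, 4.53 to 11.7 (median 6.76) in MILK-NBW and 3.66 to 15.4 (median 7.14) in MILK-IUGR. Every group held piglets with low and piglets with high HSD11B2. IUGR differed from NBW by -0.06 ± 0.10 (log2, SE) for HSD11B1 and by 0.19 ± 0.19 for HSD11B2, with 95% intervals of -0.26 to 0.14 and -0.19 to 0.57. With single piglets left out, the HSD11B1 difference ran from -0.11 (without piglet 227 of VEG-IUGR) to -0.02 (without 221 of VEG-NBW). That of HSD11B2 ran from 0.10 (without 231 of MILK-IUGR) to 0.27 (without 205 of VEG-NBW), and it was 0.37 with all 36 libraries. The log2 ratio of HSD11B1 to HSD11B2 counts differed by -0.22 between IUGR and NBW (two-sided permutation within diet, p = 0.398).

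Among the induced genes, SGK1, a kinase that acts on ion channels and transporters (ENSSSCG00000021443, chromosome 1, 29625786 to 29753619), was the steadiest. It was 67.2 to 79.8 CPM (median 74.1) in VEG-NBW, 63.9 to 84.2 (median 70.0) in VEG-IUGR, 65.7 to 81.7 (median 68.1) in MILK-NBW and 72.6 to 82.7 (median 75.9) in MILK-IUGR. No MILK-IUGR piglet fell below 72.6 CPM, a level that the other 3 groups straddled. Over both diets the difference was 0.04 ± 0.04 (log2, SE; 95% interval -0.04 to 0.13; unadjusted edgeR p of 0.285).

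The clock gene PER1, a transcriptional repressor that glucocorticoids also induce (ENSSSCG00000017983, chromosome 12, 53361863 to 53376723), was 81.0 to 160.5 CPM (median 99.4) in VEG-NBW, 74.5 to 134 (median 109) in VEG-IUGR, 70.0 to 129.9 (median 99.4) in MILK-NBW and 59.1 to 126 (median 97.3) in MILK-IUGR. Its birth weight difference was -0.04 ± 0.10 (log2, SE; 95% interval -0.24 to 0.16). Of the pairs of 1 IUGR and 1 NBW piglet, 50.4% had the higher PER1 level in the IUGR piglet.

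ZBTB16, a zinc finger transcription factor strongly induced by glucocorticoids (ENSSSCG00000030095, chromosome 9, 41639536 to 41839254), was the most variable of the 9. Its level was 3.78 to 15.8 CPM (median 6.47) in VEG-NBW, 6.80 to 15.5 (median 9.28) in VEG-IUGR, 4.17 to 21.7 (median 8.08) in MILK-NBW and 4.88 to 24.2 (median 10.1) in MILK-IUGR. The median of the IUGR group exceeded that of the NBW group in both diets, and 71.7% of the IUGR and NBW pairs had the higher level in the IUGR piglet, yet the ranges overlapped. The difference of 0.36 ± 0.21 (log2, SE) had a 95% interval of -0.07 to 0.79 and an unadjusted edgeR p of 0.0943, and two-sided permutation within diet gave p = 0.0633. With piglets left out in turn the difference stayed positive. It ran from 0.26 without piglet 207 of MILK-IUGR (unadjusted edgeR p of 0.202) to 0.52 without piglet 208 of MILK-NBW, which had the highest ZBTB16 of that group (unadjusted edgeR p of 0.0117).

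The spread between piglets of a group was wider than counting error for each gene. The within-group coefficient of variation was 7.99% for NR3C1 and 7.26% for SGK1, where the counting error of a library at the median count was 2.75% for both. It was 20.5% for FKBP5 (counting error 4.62%), 40.6% for HSD11B2 (8.67%) and 50.5% for ZBTB16 (8.11%). The highest piglet exceeded the lowest by 1.32 times for SGK1 and by 6.40 times for ZBTB16.

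A second question was whether growth restriction acted differently under the 2 fats. None of the 9 genes passed the interaction test, as none of all genes did (0.0%), and 0 of 9 had an unadjusted p under 0.05, beside 6.09% of all genes. SGK1 and NR3C1 came closest, each with an interaction of 0.15 ± 0.08 (log2, SE) and unadjusted edgeR p of 0.0586 and 0.0763. Within VEG, 0 of 9 had an unadjusted p under 0.05 (2.29% of all genes). Within MILK 2 of 9 did (6.24% of all genes), and both were higher in MILK-IUGR than in MILK-NBW. NR3C1 differed by 0.15 ± 0.06 (95% interval 0.03 to 0.27; unadjusted edgeR p of 0.0157, adjusted p = 0.771; exact permutation p = 0.0184). SGK1 differed by 0.12 ± 0.05 (95% interval 0.01 to 0.23; unadjusted edgeR p of 0.0364, adjusted p = 0.771; exact permutation p = 0.0252). Neither difference passed the correction over all genes. Of 36 exact permutation tests of the 9 genes between pairs of groups, 3 gave p under 0.05, namely these 2 and FKBP5 within VEG. The 36 tests were not adjusted for their number and were not run over all genes, so this count has no background share. NR3C1 and SGK1 were also correlated across piglets (r of 0.56), so their 2 results are not independent.

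Piglet 207 of MILK-IUGR had the highest NR3C1 of all, at 91.5 CPM, and without it the NR3C1 difference within MILK was 0.12 (unadjusted edgeR p of 0.0419) and that of SGK1 was 0.11 (unadjusted edgeR p of 0.0569), each with an adjusted p of 0.973. With each MILK-fed piglet left out in turn, the exact permutation p was under 0.05 in 17 of 17 tests for NR3C1 (0.0105 to 0.0426) and in 15 of 17 for SGK1 (0.00446 to 0.0511), where the exceptions were without MILK-NBW piglets 212 and 220. These tests were chosen after the data were seen and reuse the same piglets. They show only how far the 2 results rest on single piglets and are not independent support. With all 36 libraries the same differences were 0.17 ± 0.36 and 0.14 ± 0.36 (log2, SE) with unadjusted edgeR p of 0.643 and 0.690. The SE were 0.06 and 0.05 with the 33 libraries, and piglet 210 of VEG-IUGR, added in this fit, had no counts for either gene. None of the 5 choroid plexus markers tested passed the correction within MILK (smallest adjusted p = 0.771). All 5 had positive differences, 4 of them at an unadjusted edgeR p under 0.05, beside 6.24% of all genes. TTR, the thyroid hormone carrier of choroid plexus, differed by 3.23 ± 1.10 (log2, SE), but its medians were 19.0 CPM in MILK-NBW and 18.6 CPM in MILK-IUGR. Piglet 231 of MILK-IUGR had 1522 CPM, and the next highest of that group had 57.2 CPM. In piglet 231 NR3C1 was at 71.8 CPM, the lowest of its group. The same piglet stood apart for KCNJ13 (44.3 CPM, next highest of the group 6.87), AQP1 (9.49, next 0.908) and CLIC6 (36.4, next 1.48). Its OTX2 was 70.9 CPM, where the rest of the group had 17.8 to 88.5 CPM. The summed level of the 5 markers was 16.6 to 119.9 CPM (median 80.4) in MILK-NBW. In MILK-IUGR it was 36.8 to 1701 CPM (median 113), highest in piglet 231, and OTX2 was its largest part in the other piglets. Across the 33 piglets the 5 markers had a median correlation of -0.13 with NR3C1 and of 0.20 with SGK1, and their part in the 2 differences was not tested.

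**Figure D2:**
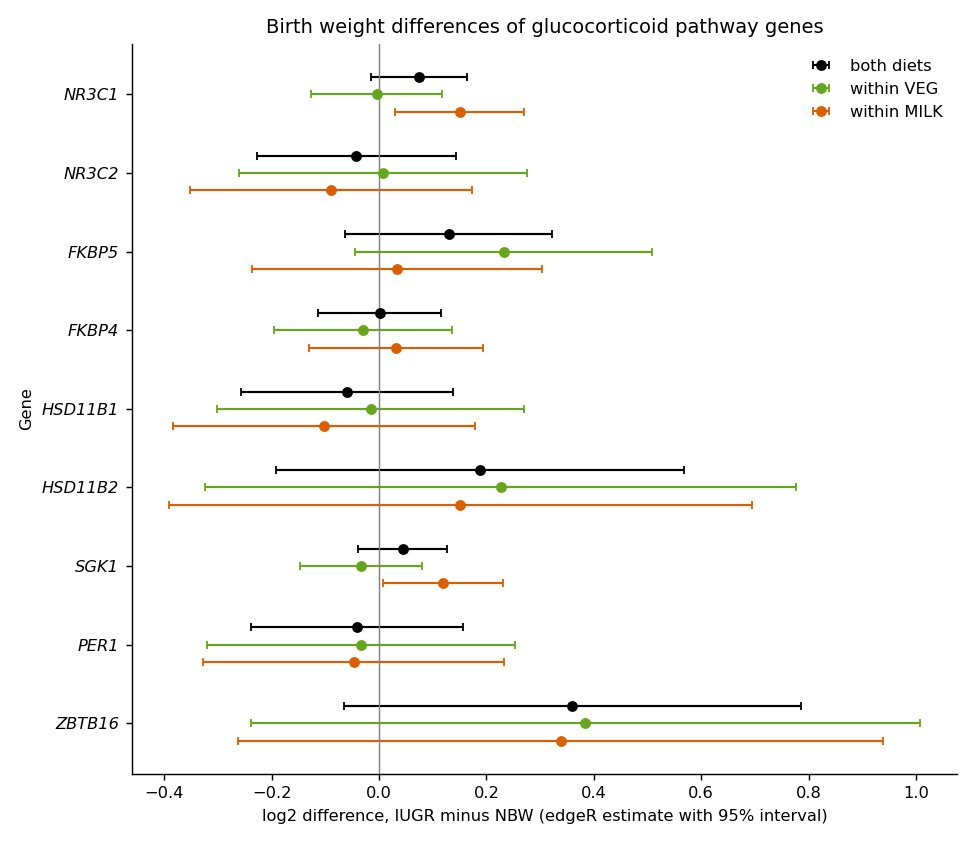
Difference between IUGR and NBW piglets on the log2 scale (horizontal axis, edgeR estimate with its 95% interval) for the 9 genes (vertical axis), over both diets in black, within VEG in green and within MILK in orange. Only the intervals of NR3C1 (0.03 to 0.27) and SGK1 (0.01 to 0.23) within MILK leave out 0, and neither passed the correction over all genes.

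For diet and sex, too, no gene of the 9 passed the test. For MILK against VEG none of the 9 genes was called (0.0% of all genes), and 0 of 9 had an unadjusted p under 0.05, beside 4.26% of all genes. The largest in size were HSD11B2 at -0.23 ± 0.19 (log2, SE; 95% interval -0.61 to 0.15) and ZBTB16 at 0.22 ± 0.21 (95% interval -0.20 to 0.65). Within NBW and within IUGR the count was again 0 of 9, where 6.67% and 3.90% of all genes had an unadjusted p under 0.05. Between females and males 25 genes (0.163%) were called, none of them among the 9, and at an unadjusted p under 0.05 the count was 0 of 9 beside 2.94% of all genes. The birth weight by sex interaction gave 0 of 9 beside 1.96% of all genes.

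The remaining genes of the pathway were taken from 6 lists. Of the receptor chaperones (HSP90, HSP70 and their partners) 13 of 15 were tested for birth weight, and 0 had an unadjusted p under 0.05, beside 2.19% of all genes, with a median difference of 0.00 (log2). Of 13 receptor coregulators and 16 clock genes tested, 0 had an unadjusted p under 0.05 in either direction. Of 4 stress peptides and receptors tested, 0 did. Of 8 genes of steroid access and metabolism, 2 were lower and 0 higher at that level (2.19% of all genes in either direction), with a median of -0.14. Of 28 other glucocorticoid-induced genes, 1 was higher and 0 lower, with a median of -0.02. None of these genes was called after adjustment over all genes in edgeR.

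The 3 genes of these lists with an unadjusted p under 0.05 for birth weight were CYP11A1, H6PD and PDK4. CYP11A1, the enzyme that starts steroid synthesis from cholesterol, was near the limit of counting, at 1.69 to 4.04 CPM in VEG-NBW, 0.937 to 2.99 in VEG-IUGR, 0.914 to 3.45 in MILK-NBW and 0.488 to 2.49 in MILK-IUGR. It differed by -0.54 ± 0.19 (log2, SE; unadjusted edgeR p of 0.00840, adjusted p = 0.9996). H6PD supplies HSD11B1 with its reducing cofactor. Its level was 22.6 to 28.3 CPM in VEG-NBW, 19.4 to 27.8 in VEG-IUGR, 21.4 to 28.3 in MILK-NBW and 13.4 to 28.1 in MILK-IUGR. H6PD differed by -0.15 ± 0.07 (unadjusted edgeR p of 0.0424, adjusted p = 0.9996). PDK4, a kinase that turns off pyruvate dehydrogenase and is induced by glucocorticoids and fasting, was 12.8 to 15.9 CPM in VEG-NBW, 12.9 to 21.3 in VEG-IUGR, 13.3 to 21.2 in MILK-NBW and 15.3 to 34.8 in MILK-IUGR. Its birth weight difference was 0.25 ± 0.10 (unadjusted edgeR p of 0.0161, adjusted p = 0.9996), and its diet difference 0.34 ± 0.10 (unadjusted edgeR p of 0.00158, adjusted p = 0.985).

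While the group means stayed close, the piglets within groups differed together in some of these genes. Correlations were taken over the 33 piglets on log2 CPM with the means of group and sex removed, for 36 pairs of the 9 genes, with permutation p-values and Benjamini-Hochberg adjustment over the 36 pairs. After adjustment 3 pairs had p under 0.05: FKBP5 with ZBTB16, NR3C1 with SGK1, and NR3C2 with PER1. Of all genes tested, 0.0651%, 3.05% and 1.53% correlated at least as strongly with the first gene of these pairs, in that order. Pairs among all genes were not counted in the same way.

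FKBP5 and ZBTB16 had a Pearson r of 0.63 (permutation p = 8e-05, adjusted p = 0.00288) and a Spearman rho of 0.53 (permutation p = 0.00183, adjusted p = 0.0290). The r was 0.63 in VEG-NBW, 0.90 in VEG-IUGR, 0.53 in MILK-NBW and 0.65 in MILK-IUGR, so that the sign was positive in each of the 4 groups. Without piglets 207 and 225, farthest from the median of FKBP5, it was 0.53. Of all genes tested, 0.0651% correlated with FKBP5 at least as strongly. The r was 0.65 after the share of reads not assigned was also removed, and that share had an r of -0.09 with FKBP5 and 0.11 with ZBTB16. With all 36 libraries it was 0.89, where piglet 210 had no counts for either gene. Of the 6 piglets with the highest FKBP5, 4 were among the 6 with the highest ZBTB16, and they came from 3 groups: piglet 225 of MILK-IUGR at 39.8 and 17.8 CPM, piglet 207 of MILK-IUGR at 38.5 and 24.2, piglet 209 of VEG-IUGR at 38.3 and 15.5, and piglet 208 of MILK-NBW at 33.9 and 21.7.

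**Figure D3:**
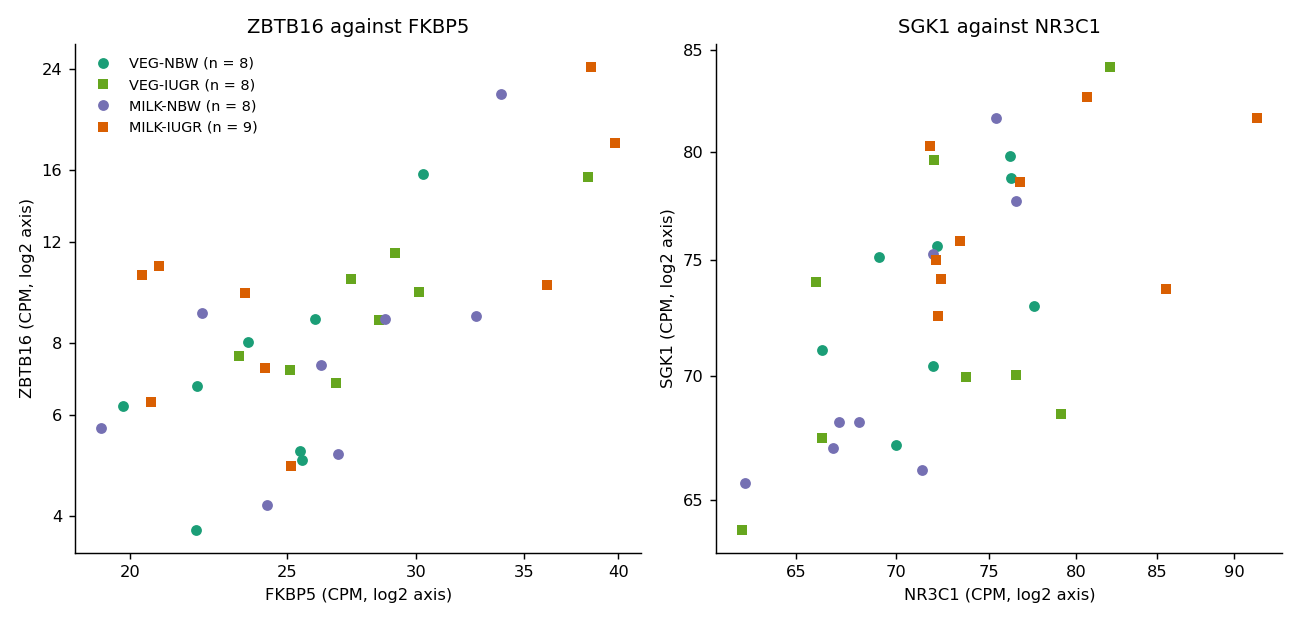
Left, ZBTB16 against FKBP5, and right, SGK1 against NR3C1, each in CPM on log2 axes, with 1 point per piglet, circles for NBW and squares for IUGR, and colours for the 4 groups. The piglets with high FKBP5 and high ZBTB16 come from 3 groups (r = 0.63), and the NR3C1 and SGK1 levels are positively related (r = 0.56).

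Other glucocorticoid-induced genes were positively correlated with FKBP5 in 21 of 28 cases, with a median r of 0.18, where the median over all genes was -0.01. The highest were PDK4 at 0.51, KLF15, a metabolic transcription factor, at 0.49, CEBPD at 0.46 and MERTK, a phagocytic receptor, at 0.42. The lowest were IRS2 at -0.32, GADD45A at -0.25 and RHOB at -0.21, and CDKN1A at 0.01 and ERRFI1 at 0.02 were near 0. The share of all genes with a positive r is not given here. Of the induced genes chosen by name, PER1 had an r of 0.08 with FKBP5 and SGK1 one of -0.06, beside 0.63 for ZBTB16. With ZBTB16, 19 of the 28 other glucocorticoid-induced genes were positive, with a median r of 0.10. The highest there were PDK4 at 0.52, KLF15 at 0.51 and MERTK at 0.43, and the lowest was RHOB at -0.29. Of the clock genes 11 of 16 had a positive r with FKBP5, with a median of 0.20. BHLHE41 was at 0.66, CIART at 0.64, NR1D2 at 0.58, NR1D1 at 0.56, DBP at 0.53 and TEF at 0.51, while BMAL1 was at -0.48. Of the receptor chaperones 10 of 13 had a positive r with FKBP5, with a median of 0.28. The highest were DNAJB1 at 0.58, STIP1, which links HSP70 to HSP90, at 0.51 and HSPA8 at 0.42, and the lowest was PTGES3 at -0.08. With ZBTB16 10 of 13 chaperones were positive with a median of 0.19, and STIP1 and PPID were both at 0.59. FKBP5 with FKBP4 gave 0.42 (permutation p = 0.0140, adjusted p = 0.101). Cell type markers were weakly related to FKBP5, with list medians of 0.04 for granule neuron, -0.04 for Purkinje cell, 0.07 for oligodendrocyte, 0.12 for astrocyte and -0.17 for microglia markers. These correlations are descriptions over the same 33 piglets, and genes are not independent of each other.

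Over all genes, the 5 most like FKBP5 were DIO2 at 0.75, PAQR8 at 0.72, CALR at 0.72, KDELR2 at 0.66 and BHLHE41 at 0.66. DIO2 activates thyroid hormone, PAQR8 is a membrane progestin receptor, CALR and KDELR2 act in the folding and retrieval of proteins in the endoplasmic reticulum, and BHLHE41 represses clock transcription. DIO2 ranged from 5.96 to 19.9 CPM and had an r of -0.03 with the share of reads not assigned. The genes most like ZBTB16 were RAB20 at 0.64, FKBP5 itself at 0.63, WNT9A at 0.61, STIP1 at 0.59 and ENSSSCG00000040828, which has no symbol, at 0.59.

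NR3C1 and SGK1 had an r of 0.56 (permutation p = 0.00068, adjusted p = 0.00816) and a rho of 0.52 (permutation p = 0.00242, adjusted p = 0.0290). The r was 0.59 in VEG-NBW, 0.55 in VEG-IUGR, 0.83 in MILK-NBW and 0.42 in MILK-IUGR, 0.49 without piglets 201 and 207, and 0.57 with the share of reads not assigned also removed. NR3C1 was a broad correlate: 3.05% of all genes correlated with it at least as strongly as SGK1 did. From the side of SGK1, NR3C1 was the third gene in order of likeness after NVL at 0.65 and AGR2 at 0.60. The genes most like NR3C1 were ENSSSCG00000005959 without a symbol at 0.79, TRMT9B at 0.76, GPD2, the mitochondrial glycerol-3-phosphate dehydrogenase, at 0.75, NARS1 at 0.75 and OXR1 at 0.74, and 31 genes had an r of -0.7 or below with it. NR3C1 and FKBP5 had an r of -0.16 (permutation p = 0.389), and FKBP5 and SGK1 one of -0.06.

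**Figure D4:**
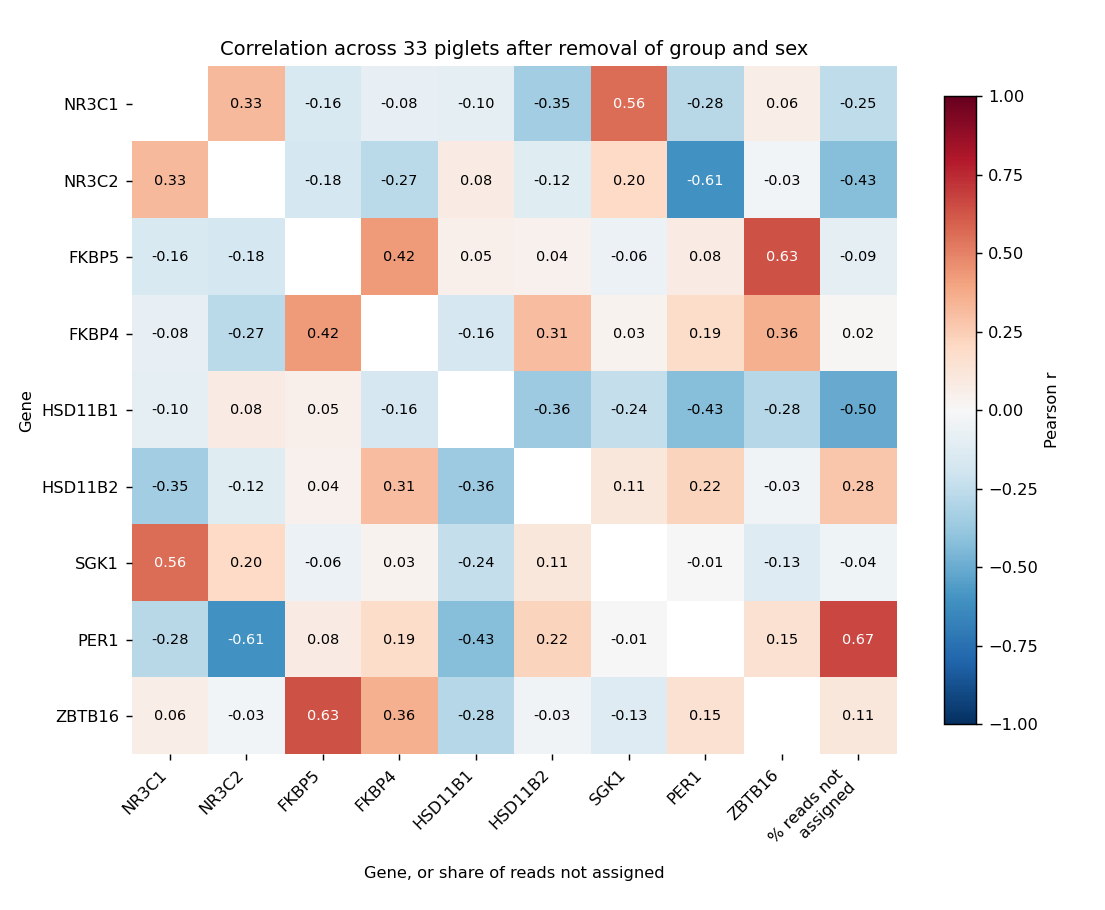
Pearson r over 33 piglets of log2 CPM with group and sex removed, for each pair of the 9 genes and, in the last column, for each gene with the share of reads not assigned. Red is positive and blue negative, and the diagonal is left blank. The strongest cells are FKBP5 with ZBTB16 (0.63), NR3C1 with SGK1 (0.56), NR3C2 with PER1 (-0.61) and PER1 with the share of reads not assigned (0.67).

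PER1 and NR3C2 varied in opposite directions, with an r of -0.61 (permutation p = 0.00018, adjusted p = 0.00324) and a rho of -0.63 (permutation p = 0.00012, adjusted p = 0.00432). Both also moved with the share of reads not assigned. Over the 33 piglets that share had an r of 0.67 with PER1 (permutation p = 1e-05, the smallest that 100000 permutations can give, adjusted p over 9 genes 9e-05), of -0.43 with NR3C2 (permutation p = 0.0134, adjusted p = 0.0403) and of -0.50 with HSD11B1 (permutation p = 0.00290, adjusted p = 0.0130). For PER1 it was positive in all 4 groups (0.90 in VEG-NBW, 0.77 in VEG-IUGR, 0.72 in MILK-NBW and 0.31 in MILK-IUGR) and 0.54 without piglets 207 and 215. Of all genes, 3.28% had an r with that share at least as large in size as that of PER1, beside 26.5% for NR3C2 and 16.9% for HSD11B1. With the share removed, PER1 and NR3C2 still had an r of -0.48. With all 36 libraries the r was 0.92, where piglet 210 had no counts for either gene.

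**Figure D5:**
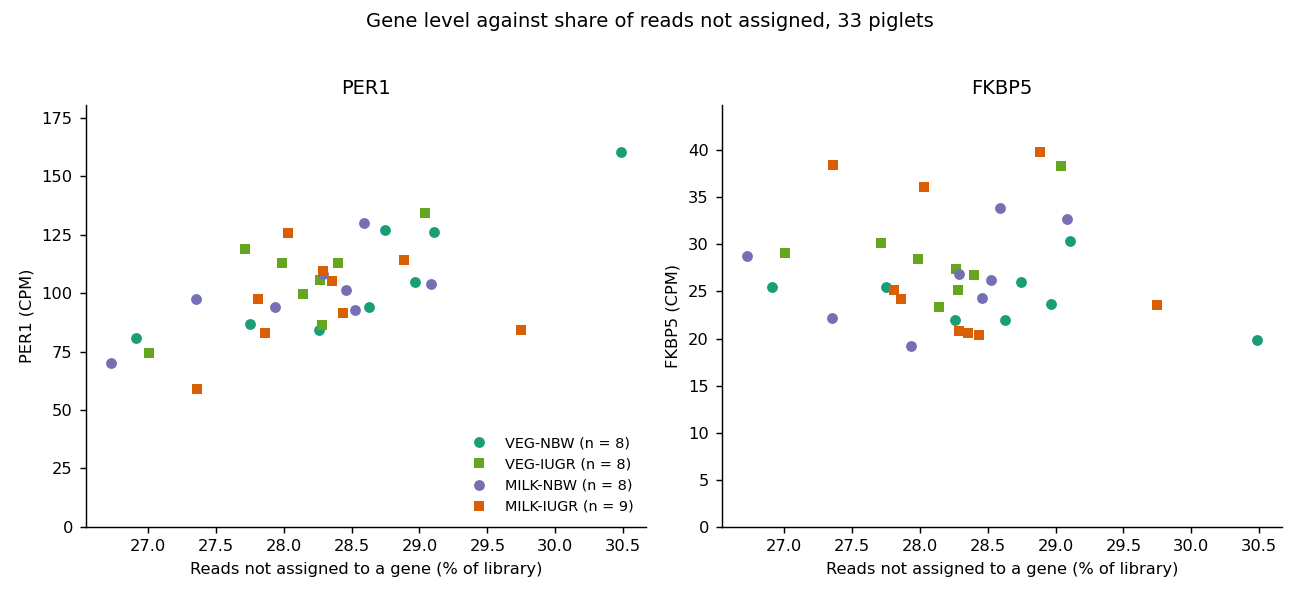
Level of PER1 (left) and FKBP5 (right) in CPM, from 0, against the percentage of reads of the library that were not assigned to a gene, with 1 point per piglet and the 4 groups in colour. PER1 is higher in libraries with more reads not assigned (r = 0.67), and FKBP5 shows no such trend (r = -0.09).

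PER1 was close to many genes at once: 304 genes had an r of 0.7 or more with it and 130 an r of -0.7 or less, against 3 and 0 for FKBP5. The nearest were BRAT1 at 0.87, ASXL1 at 0.87 and ARHGEF11 at 0.86, of which ASXL1 itself had an r of 0.76 with the share of reads not assigned. Of the 16 clock genes tested, 12 had a positive r with PER1, with a median of 0.31, beside -0.02 over all genes. The highest were PER2 at 0.80, CRY2 at 0.65, NR1D1 at 0.64 and TEF at 0.61. BMAL1, the activator that runs opposite to these genes in the daily cycle, was at -0.10, and the lowest was RORB at -0.39. Of 13 receptor coregulators 12 were positive, with a median of 0.57. Granule neuron markers had a median r of 0.55 with PER1 and microglia markers one of -0.64.

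NR3C2 showed the reverse pattern towards cell types. It had a median r of 0.60 with 7 microglia markers, led by CSF1R at 0.70 and AIF1 at 0.65, of 0.41 with astrocyte and Bergmann glia markers and 0.41 with oligodendrocyte markers, and of -0.44 with granule neuron markers. The gene most like NR3C2 was PIK3CG, a phosphoinositide kinase subunit, at 0.79, followed by ENSSSCG00000029371 at 0.78, SOX6 at 0.76, CPED1 at 0.75 and PLSCR4 at 0.75. The part of cell composition and of the share of reads not assigned in the NR3C2 and PER1 values was not tested.

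HSD11B2, variable in every group, had a negative r with all 7 Purkinje cell markers, with a median of -0.41 and the lowest at -0.70 for CALB1, the calcium buffer of these neurons. Among the genes most like HSD11B2 were ENSSSCG00000051017 at 0.77, CDCA7, a gene of dividing cells, at 0.76, ZNF319 at 0.70 and NMU at 0.70. HSD11B2 and HSD11B1 had an r of -0.36 (permutation p = 0.0383, adjusted p = 0.210).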

How the data were processed

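For each piglet the authors deposited raw counts of paired-end reads of 150 bases per Ensembl pig gene, not normalized. Per the submitters' processing notes Trim Galore, HISAT2, HTSeq and the Sscrofa11.1 build were used, with versions and the strand setting not given in the sources used here, so reads of overlapping genes on opposite strands cannot be told apart. Gene coordinates are those of the RefSeq table of Sscrofa11.1. The main test was that of edgeR 4.0.16 under R 4.3.3 (TMM, filterByExpr with a minimum count of 10, quasi-likelihood test, sex as covariate, Benjamini-Hochberg over all 15356 genes tested). Diet and birth weight were tested without an interaction, and other contrasts in a model of group means. Alternatives used DESeq2 1.42.0, limma 3.58.1 voom, sva 3.50.0, other filters, all 36 libraries, and each piglet left out in turn. The fits were tested on simulated data. Permutation tests were two-sided on log2 CPM (prior count of 2), exact for 2 groups and with 100000 draws otherwise, and 0.5 was added to counts in ratios. The correlation family held 36 pairs in place of the planned 45, since TSC22D3 had no counts. The 3 libraries were left out by the share of reads not assigned, where each stood apart in its group. The 10 genes and all lists were chosen with earlier results of these data known. Named beyond the 10 were list genes with an unadjusted p under 0.05 for birth weight (up to 3 per list) and the 5 genes most correlated with a described gene, of which 1 is not reported here; other genes were chosen after their values were seen. Litter was not used here, so p-values treat litter mates as independent.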

Additional observations from a re-analysis of the deposited data

Results flagged for a closer look

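Of 36 sets of 1 gene in 1 group, 3 held a piglet whose gap to its nearest neighbour, divided by the range of the group, exceeded Dixon's 95% critical value, and chance flags about 1 in 20 such sets. In VEG-IUGR, piglet 209 had an FKBP5 level of 38.3 CPM where the others were at 23.3 to 30.1 CPM. In VEG-NBW, piglet 205 had a ZBTB16 level of 15.8 CPM where the others were at 3.78 to 8.82 CPM. In MILK-NBW, piglet 208 had a ZBTB16 level of 21.7 CPM where the others were at 4.17 to 9.03 CPM. All 3 lay on the high side, and each of these piglets was among the 7 with the highest FKBP5 and the 5 with the highest ZBTB16.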

How the results depend on the processing

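No glucocorticoid pathway gene had an adjusted p under 0.05 in any comparison under any alternative run. Of 637 values recomputed under alternatives, 25 changed sign, where correlations were compared by direction only. Sides of the threshold were read from the adjusted p in the fits across all genes. The unadjusted p crossed 0.05 in 8 of 420 such values, for NR3C1, SGK1 and ZBTB16: ZBTB16 was at 0.0498 with 2 surrogate variables and at 0.0171 and 0.0495 without piglets 205 and 214, and the others stand beside their genes. The number of genes called within MILK was 1 in place of 0 in 6 alternatives (without piglet 207, DESeq2 size factors in edgeR, DESeq2, voom, edgeR without sex, at least 10 counts in every library), and within NBW it was 1 without piglet 207 and 2 in DESeq2. For sex it was 128 with 2 surrogate variables and 7 with at least 10 counts in every library, in place of 25. The birth weight difference (log2) of FKBP4 was -0.021 without piglet 207 and -0.030 in voom, and it ran from -0.027 to 0.018 with single piglets left out. That of PER1 was 0.018 with the share of reads not assigned as a covariate, and ran from -0.068 to 0.0070. With all 36 libraries, where piglet 210 had no counts for 6 of the genes, edgeR gave -0.039 for NR3C1 and -0.017 for SGK1, mean differences of log2 CPM were -0.48 for NR3C1, -0.31 for FKBP5, 0.15 for FKBP4 and -0.46 for SGK1, ratios were -0.073 for NR3C1 to NR3C2 and -0.51 for FKBP5 to FKBP4, and the correlation of NR3C2 with PER1 was 0.92. The exact permutation tests with a piglet left out, chosen after seeing the data, gave differences of 0.16 to 0.27 for FKBP5 within VEG, 0.11 to 0.16 for NR3C1 and 0.10 to 0.15 for SGK1 within MILK. HSD11B2 and ZBTB16 had 57 to 397 reads in a library, with counting errors of 8.67% and 8.11%. Their within-group coefficients of variation were wider, at 40.6% and 50.5%. This spread between piglets and the choice of the 3 libraries left out limit what can be said of these genes. No paired analysis was made: piglet numbers are unique across groups, and litter, which the study fitted as a random effect, was not used here.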

Other observations

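The chaperones that hold the receptor in its hormone-binding form differed little by diet, with 10 of 13 positive and a median of 0.03 (log2, MILK minus VEG). Of these, 2 had an unadjusted edgeR p under 0.05 and 0 passed adjustment, beside 4.26% of all genes: AHSA1, an activator of HSP90, at 0.08 ± 0.04 (SE, unadjusted p of 0.0268) and STIP1 at 0.09 ± 0.04 (unadjusted p of 0.0491). For the diet by birth weight interaction 3 of 13 had an unadjusted edgeR p under 0.05, beside 6.09% of all genes, in differing directions and with an adjusted p of 0.784. HSP90AB1, the constitutive HSP90, was at -0.21 ± 0.08 (unadjusted edgeR p of 0.00840), HSPA4 at 0.20 ± 0.08 (unadjusted edgeR p of 0.0187) and CDC37 at -0.17 ± 0.08 (unadjusted edgeR p of 0.0448). Among the clock genes, BMAL1 was 0.10 ± 0.04 (unadjusted edgeR p of 0.0211) and DBP, an output factor of the clock, -0.19 ± 0.09 (unadjusted edgeR p of 0.0336) for diet, both with an adjusted p of 0.985. These genes were chosen after their values were seen.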
